A study of Homo sapiens with 3 samples.

Results

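E2F factors and the retinoblastoma (RB) family were examined at the RNA level in PC3 cells in which the deubiquitinase USP16 had been knocked down. The 10 genes were taken by symbol from the 59719 gene names of the deposited table: E2F1, E2F2, E2F3, E2F4, E2F7, E2F8, TFDP1, RB1, RBL1 and RBL2. PC3 is an established, androgen-independent prostate cancer cell line. The study sequenced total RNA as 3 libraries. There was 1 from control cells (shCON) and 1 for each of 2 short hairpin RNAs that target USP16 (shUSP16#1 and shUSP16#2). The paper describes stable hairpin-carrying PC3 cells selected with puromycin. It does not say whether the sequenced cells were selected in this way. With 1 library per condition, no difference described here has a replicate check and none was tested across samples. Whether the 3 cell populations differed before the hairpins were introduced cannot be told apart from an effect of the hairpins.

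E2F proteins bind DNA together with a DP partner and set the transcription of genes for DNA replication and mitosis. E2F1, E2F2 and E2F3 are the activators of the family. E2F4 mostly acts as a repressor in resting and early cycling cells, and the atypical E2F7 and E2F8 bind DNA without a DP partner and repress late in S phase. The pocket proteins pRB (RB1), p107 (RBL1) and p130 (RBL2) hold E2Fs inactive until cyclin-dependent kinases phosphorylate them. p107 and p130 with E2F4 and a DP protein form the DREAM complex on the MuvB core, which silences cell cycle genes outside proliferation. Several E2F genes are themselves under E2F control.

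Levels are given as TPM (transcripts in every 1000000), in which transcript length is divided out and all libraries have an equal total, so that levels can be compared between genes. TPM does not record depth, and no counting interval could be given. Changes are differences of log2(TPM + 1) between a hairpin library and shCON, which makes the change of a low gene look smaller than it is. All counts of 2-fold changes below are on this scale unless TPM itself is named. USP16 itself was at 19.92 TPM in shCON, 3.5 TPM with shUSP16#1 and 1.08 TPM with shUSP16#2. Of the PC3 markers, KRT8 ranged from 622.39 to 748.25 TPM and VIM from 40.48 to 96.41 TPM. The prostate luminal genes KLK2 and KLK3 were listed at 0 in all 3 libraries. All 6 PC3 markers were lower by some amount under both hairpins, against 57.2% of all tested genes. Their median log2 changes were -0.63 and -0.54. All 10 E2F and RB family genes passed the minimum mean of 1 TPM, as did 13629 genes in all. The tested genes as a whole had median log2 changes of -0.17 (shUSP16#1) and -0.37 (shUSP16#2), and some changes are therefore given after subtracting these. After this subtraction the medians of the PC3 markers were -0.45 and -0.17. Of the 6 markers, 4 were lower than the median tested gene under both hairpins, against 41.7% of all tested genes.

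Promoter sequence was compared first, because E2F genes can carry binding sites for the family itself. RefSeq promoter windows (GRCh38.p14) covering 250 bases before and 50 after the transcription start were found for 9 of the 10 genes, all but E2F8. They were searched on both strands for the 4 words TTTCCCGC, TTTCGCGC, TTTGCCGC and TTTGGCGC, which are forms of the E2F site. A word was present in 5 of the 9 genes, and in 3.99% of the 27305 genes with a window. E2F1 and RBL1 held 2 words each, and E2F2, E2F3 and TFDP1 held 1. Another window of E2F3, at chr6:20403364-20403663, held no word. None was found in the windows of E2F4, E2F7, RBL2 or RB1, and the RB1 window belongs to a start 172724 bases inside the annotated gene. A match describes letters only and does not show binding. The 70 bases before the transcription start are printed on the gene's own strand for E2F1 (chr20:33686386-33686455, reverse), E2F2 (chr1:23531234-23531303, reverse), E2F3 (chr6:20401809-20401878, forward) and RBL1 (chr20:37095998-37096067, reverse). For TFDP1 the stretch from position -140 to -71 is printed (chr13:113584613-113584682, forward). Capitals mark the words, those on the other strand being read as their reverse complement.
E2F1: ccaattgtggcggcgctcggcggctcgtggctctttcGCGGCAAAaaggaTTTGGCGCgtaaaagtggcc
E2F2: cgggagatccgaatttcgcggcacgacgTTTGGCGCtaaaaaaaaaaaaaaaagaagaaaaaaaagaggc
E2F3: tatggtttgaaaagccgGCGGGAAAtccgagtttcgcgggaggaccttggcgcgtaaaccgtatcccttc
RBL1: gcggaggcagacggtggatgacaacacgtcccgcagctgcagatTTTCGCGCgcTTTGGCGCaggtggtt
TFDP1: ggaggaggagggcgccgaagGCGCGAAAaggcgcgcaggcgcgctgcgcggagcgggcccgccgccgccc

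Of the 10 genes, 6 were lower by some amount under both hairpins, namely E2F3, E2F7, E2F8, TFDP1, RB1 and RBL1, a share near the 57.2% of all tested genes. E2F4 was the 1 higher under both, against 24.5%. The 4 genes outside the 6 stayed near their shCON level or had opposite signs, and these were E2F1, E2F2, E2F4 and RBL2. E2F3 and E2F7 were at least 2-fold lower under both hairpins on the log2(TPM + 1) scale, and these 2 of 10 genes compare with 4.58% of all tested genes. None of the 10 was at least 2-fold higher under both, against 1.12% of all tested genes. Counted in a single library, 2 of the 10 were at least 2-fold lower with shUSP16#1 (5.76% of all tested genes) and 5 with shUSP16#2 (19.5%). The 5 were E2F3, E2F7, TFDP1, RB1 and RBL1. Against the median tested gene, 6 of 10 were lower under both hairpins, against 41.7%. The median log2 change of the 10 genes was -0.70 and -1.0 under the respective hairpins. Both comparisons use the same shCON library, so an unusual value there enters both. Across all tested genes the 2-fold rule gave 624 lower and 153 higher genes, which became 270 and 338 after centring on the median. No gene of the family met it once centred or after correction for the dependence of the changes on GC content.

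**Figure D1:**
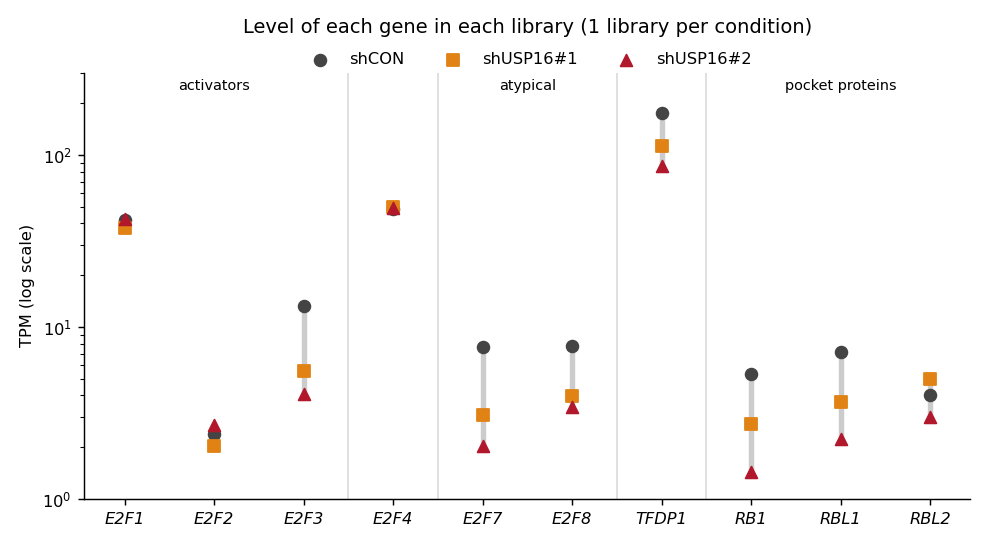
Level of each of the 10 genes in TPM on a log axis, with 1 point per library (circle, shCON; square, shUSP16#1; triangle, shUSP16#2) and a grey line over the range. For E2F3, E2F7, E2F8, TFDP1, RB1 and RBL1 the order is shCON, shUSP16#1, shUSP16#2 from high to low, whereas the points of E2F1 and E2F4 nearly coincide.

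Among the activators, E2F1 (ENSG00000101412, chr20:33675683-33686404 of GRCh38, reverse strand) was the most abundant. It was at 41.57 TPM in shCON, 37.72 TPM with shUSP16#1 and 42.25 TPM with shUSP16#2, or log2 changes of -0.14 and 0.02. The hairpin libraries lay on either side of the control. In shCON 77.1% of the tested genes were below E2F1, and with shUSP16#2 81.4% were.

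E2F2 (ENSG00000007968, chr1:23506430-23531220, reverse strand) was the lowest of the 10 genes in shCON. Its level was 2.37 TPM there, 2.03 TPM with shUSP16#1 and 2.68 TPM with shUSP16#2, with log2 changes of -0.15 and 0.13. As for E2F1, the directions under the hairpins were opposite.

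E2F3 (ENSG00000112242, chr6:20401906-20493715, forward strand) fell from 13.26 TPM in shCON to 5.51 TPM with shUSP16#1 and 4.10 TPM with shUSP16#2. These levels are 41.6% and 30.9% of the control, and the log2 changes were -1.13 and -1.48. Relative to all tested genes the changes were -0.96 and -1.12, so the first no longer reached 2-fold. Of the activators E2F3 had the lowest change, and each of the 3 has an E2F word in a promoter window. Another window of E2F3 holds none.

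The make-up of the activator class moved accordingly. E2F3 made up 23.2% of the summed TPM of E2F1, E2F2 and E2F3 in shCON, 12.2% with shUSP16#1 and 8.36% with shUSP16#2. E2F1 made up 72.7%, 83.3% and 86.2%. The sum itself was 57.2 TPM in shCON, 45.3 TPM with shUSP16#1 and 49.0 TPM with shUSP16#2. A ratio of genes within a library does not depend on how that library was scaled. The ratio of E2F1 to E2F3 was 3.13 in shCON, 6.85 with shUSP16#1 and 10.3 with shUSP16#2. It does depend on GC content, in which the genes differ (62.5% and 45.2%): the log2 change of E2F1 was above that of E2F3 by 0.99 and 1.51, and by 0.38 and 0.63 with the GC trend removed.

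E2F4 (ENSG00000205250, chr16:67192169-67198918, forward strand), the main E2F of the DREAM complex, was the steadiest of the family. It was at 48.78 TPM in shCON, 49.59 TPM with shUSP16#1 and 49.38 TPM with shUSP16#2, and both log2 changes were 0.02. Relative to all tested genes E2F4 was higher by 0.19 and 0.39. It made up 40.2% of the summed TPM of the 6 E2F genes in shCON and 48.7% and 47.5% under the hairpins.

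The atypical E2Fs were lower under both hairpins. E2F7 (ENSG00000165891, chr12:77021247-77065580, reverse strand) fell from 7.68 TPM in shCON to 3.09 TPM with shUSP16#1 and 2.03 TPM with shUSP16#2, or log2 changes of -1.09 and -1.52. E2F8 (ENSG00000129173, chr11:19224063-19241620, reverse strand) was at 7.79, 3.95 and 3.42 TPM in the same order. Its log2 changes were -0.83 and -0.99, so that it missed the 2-fold rule with shUSP16#2 through the pseudocount of 1. In TPM itself E2F8 was at 50.7% and 43.9% of shCON.

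In shCON the atypical genes were expressed almost equally, whereas with shUSP16#2 E2F8 made up 62.8% of their sum. The sum of E2F7 and E2F8 was 15.5 TPM in shCON, 7.04 TPM with shUSP16#1 and 5.45 TPM with shUSP16#2. The summed activators exceeded the summed atypical E2Fs by a ratio of 3.70 in shCON, 6.43 with shUSP16#1 and 9.0 with shUSP16#2. E2F1, which makes up most of the activator sum, had a log2 change above that of E2F7 by 0.95 and 1.54 and above that of E2F8 by 0.69 and 1.01. With the GC trend removed these gaps were 0.32 and 0.59 for E2F7 and 0.09 and 0.14 for E2F8.

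TFDP1 (ENSG00000198176, chr13:113584721-113641470, forward strand) encodes DP1, the partner through which E2F1 to E2F4 bind DNA. It was the most abundant of the 10 genes in every library. Its level was 175.58 TPM in shCON, 112.03 TPM with shUSP16#1 and 86.68 TPM with shUSP16#2, or log2 changes of -0.64 and -1.01. The ratio of TFDP1 to the summed 6 E2F genes was 1.45 in shCON, 1.10 with shUSP16#1 and 0.835 with shUSP16#2. The log2 change of E2F1 was above that of TFDP1 by 0.51 and 1.03, and by -0.12 and 0.18 with the GC trend removed.

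The pocket protein genes were expressed at a low level, and RB1 and RBL1 were lower under both hairpins. RB1 (ENSG00000139687, chr13:48303726-48599436, forward strand) was at 5.29 TPM in shCON, 2.73 TPM with shUSP16#1 and 1.43 TPM with shUSP16#2, with log2 changes of -0.75 and -1.37. RBL1 (ENSG00000080839, chr20:36996349-37095995, reverse strand), which encodes p107, was at 7.11, 3.66 and 2.23 TPM, with log2 changes of -0.80 and -1.33. Both genes were at about the same percentage of shCON with shUSP16#1, 51.6% for RB1 and 51.5% for RBL1, and at 27.0% and 31.4% with shUSP16#2.

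RBL2 (ENSG00000103479, chr16:53433977-53491649, forward strand), which encodes p130, did not share this direction. It was at 4 TPM in shCON, 5 TPM with shUSP16#1 and 3 TPM with shUSP16#2, or log2 changes of 0.26 and -0.32. Relative to all tested genes these were 0.43 and 0.05. RBL2 was the only 1 of the 18795 gene names above 0 in all libraries that was listed at whole numbers in all 3, and whether its values were rounded or altered could not be told from the table. The shares and ratios that include RBL2 rest on these values. The exons of RBL2 share 610 bases with AKTIP on the opposite strand, which was at 9.99, 7.93 and 6.61 TPM, and whether strand was used in counting is not given in the sources used here.

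RBL2 made up 24.4% of the summed pocket protein TPM in shCON, 43.9% with shUSP16#1 and 45.0% with shUSP16#2. The ratio of RB1 to RBL2 was 1.32, 0.546 and 0.477 in the same order. The sum of the 3 genes was 16.4 TPM in shCON, 11.4 TPM with shUSP16#1 and 6.66 TPM with shUSP16#2, and the ratio of summed activators to it was 3.49, 3.97 and 7.36. Without RBL2, the sum of RB1 and RBL1 was 12.4, 6.39 and 3.66 TPM, the ratio of summed activators to it was 4.61, 7.08 and 13.4, and the ratio of RB1 to RBL1 was 0.744, 0.746 and 0.641. In shCON, E2F1 exceeded RB1 by a ratio of 7.86, and under the hairpins by 13.8 and 29.5. The log2 change of E2F1 was above that of RB1 by 0.62 and 1.39, but with the GC trend removed the gap was -0.22 and 0.13, so that its direction turned with shUSP16#1. In bulk RNA, a smaller share of cells in the cycle phases that express a gene and less of its RNA per cell cannot be told apart.

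**Figure D2:**
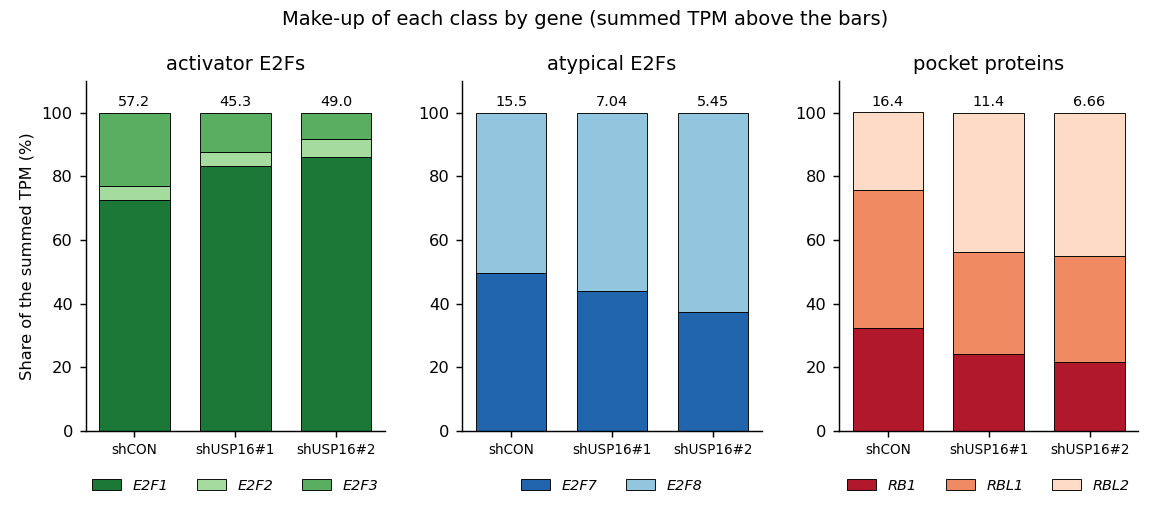
Share of each gene in the summed TPM of its class, in percent, for the activator E2Fs, the atypical E2Fs and the pocket proteins in the 3 libraries, with the summed TPM above each bar. E2F3 narrows from 23.2% to 8.36% of the activators and RBL2 widens from 24.4% to 45.0% of the pocket proteins between shCON and shUSP16#2.

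The order of the 10 genes by level was the same at the top in every library, TFDP1 first, then E2F4, E2F1 and E2F3. Below these, E2F8, E2F7, RBL1, RB1, RBL2 and E2F2 followed in shCON within 2.37 and 7.79 TPM. Under shUSP16#2 the lowest was RB1 at 1.43 TPM, and E2F2 stood above RBL1 and E2F7. With 1 library per condition there is no spread by which neighbours in this order could be separated.

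The hairpins differed in how far the family moved. For 8 of the 10 genes the log2 change was lower with shUSP16#2 than with shUSP16#1, as for 10011 of the 13629 tested genes. E2F1 and E2F2 were the exceptions, E2F4 being lower by less than the rounding of its changes. USP16 itself was at 17.6% of its shCON level with shUSP16#1 and 5.42% with shUSP16#2.

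**Figure D3:**
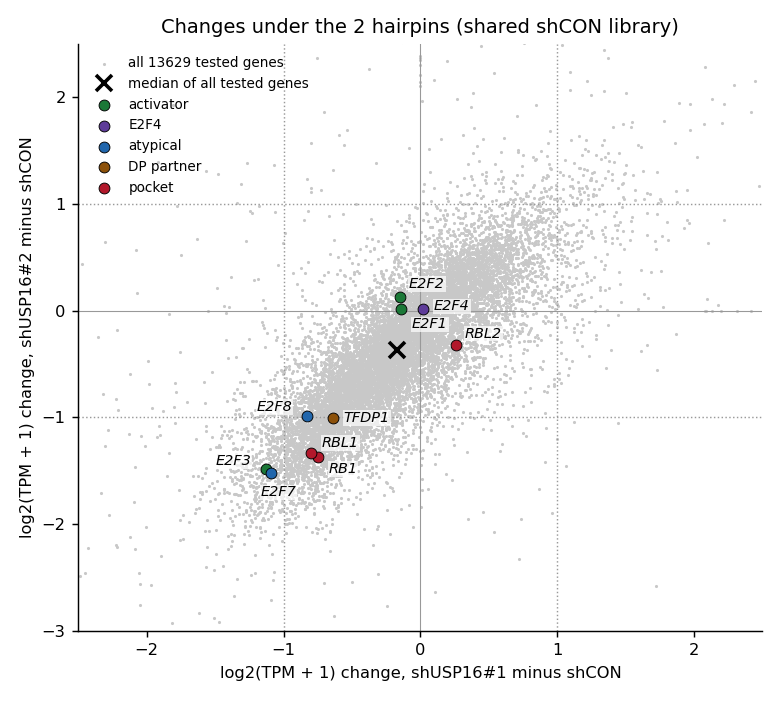
Change in log2(TPM + 1) from shCON with shUSP16#1 (x axis) and shUSP16#2 (y axis) for the tested genes (grey; 182 lie outside the axes) and the 10 family genes coloured by class, with dotted lines at 2-fold and a cross at the median of all tested genes. E2F3 and E2F7 lie past both lines, RB1, RBL1 and TFDP1 past the line for shUSP16#2, and E2F1, E2F2, E2F4 and RBL2 up and right of the median.

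The changes within the family went along with the GC content of the transcripts when GC-rich members were set against the others. The changes of all tested genes also followed GC content (Spearman's rho across genes 0.54 for shUSP16#1 and 0.64 for shUSP16#2, where genes are not replicates). E2F1, E2F2 and E2F4, with 62.5%, 57.5% and 58.1% GC, were the GC-rich members, and the other 7 had 37.3% to 46.6%. Within these 7 the changes with shUSP16#1 were not in the order of GC content. RB1, with the least GC, was at -0.75, whereas E2F3, with 45.2% GC, was at -1.13. Over the 10 genes, which share the 3 libraries, the change correlated with GC content with Spearman's rho of 0.47 and Pearson's r of 0.56 with shUSP16#1, and 0.76 and 0.84 with shUSP16#2. GC content was not the only property that went along with the changes. For the length listed for each gene, Spearman's rho over the 10 genes was -0.50 with shUSP16#1 and -0.44 with shUSP16#2. Tested genes in the same GC bin as RB1 had median log2 changes of -0.61 and -1.04, against -0.75 and -1.37 for RB1 itself. In the bin of E2F1 the medians were 0.23 and 0.22, and E2F1 was at -0.14 and 0.02. RBL2 and E2F7 fell in the same bin, with medians of -0.40 and -0.73, and lay on opposite sides of it.

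With the trend removed, the log2 changes were -0.92 and -1.20 for E2F3, -0.85 and -1.16 for E2F7, and -0.62 and -0.71 for E2F8. Those of RB1 came to -0.32 and -0.70, those of RBL1 to -0.41 and -0.72, and those of TFDP1 to -0.42 and -0.75. E2F1 moved the other way, to -0.54 and -0.57, and E2F4 to -0.23 and -0.37, beside an unaltered median of all tested genes of -0.17 and -0.37. E2F1 was then lower than the median by 0.36 and 0.20, E2F4 was at or within 0.06 of it, and RBL2 was higher by 0.67 and 0.40. E2F3, E2F7, E2F8, TFDP1, RB1 and RBL1 were below the median of all tested genes with and without this correction, whereas E2F1 was below it only with the correction. The part of GC content or of length in the changes was not tested.

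**Figure D4:**
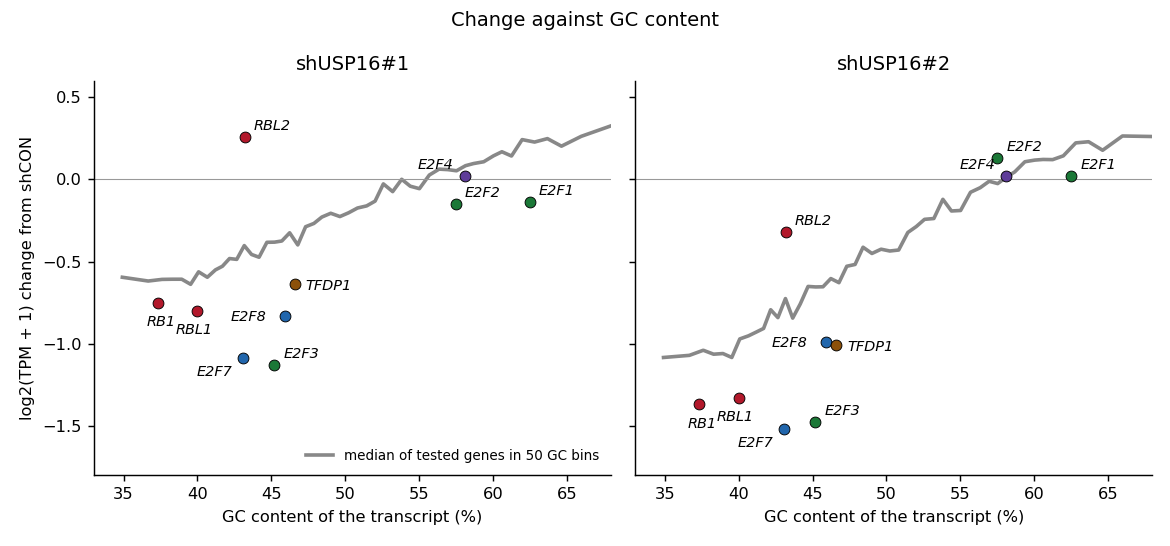
Change in log2(TPM + 1) from shCON against the GC content of the transcript in percent, with shUSP16#1 (left) and shUSP16#2 (right), with 1 point per family gene coloured by class and a grey line for the median of the tested genes in 50 GC bins. RBL2 lies above the line in both panels, E2F3, E2F7, E2F8, TFDP1, RB1, RBL1 and E2F1 lie below it, E2F4 lies close to it, and E2F2 lies below it on the left and above it on the right.

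The remaining members of the family that were read from the table are E2F5, E2F6 and TFDP2. E2F5, a pocket-protein-bound repressor like E2F4, was at 13.30 TPM in shCON, 12.22 TPM with shUSP16#1 and 6.60 TPM with shUSP16#2. E2F6, which represses without pocket proteins, was at 10.62, 6.11 and 4.38 TPM, with log2 changes of -0.71 and -1.11. TFDP2, the other DP partner, was at 9.23, 9.03 and 9.41 TPM, so that it kept its level while TFDP1 was at 49.4% of shCON with shUSP16#2. None of these 3 genes was 2-fold lower or higher under both hairpins, against 4.58% and 1.12% of all tested genes.

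Among the MuvB core and the factors that bind it, 1 of 7 genes passed the 2-fold rule as lower. The share of all tested genes was 4.58%. The gene that passed was LIN54, the DNA-binding subunit, at 4.31 TPM in shCON and 1.62 and 1.01 TPM under the hairpins. LIN9 was at 10.01, 4.60 and 3.13 TPM and LIN52 at 5.46, 2.57 and 2.25 TPM, while LIN37 was at 9.15, 13.02 and 13.73 TPM. In TPM itself LIN9 and LIN52 were also more than 2-fold lower under both hairpins, and they missed the rule through the pseudocount of 1. The share of all tested genes in TPM itself was not counted. With a pseudocount of 0.1 the lower calls over all tested genes rose from 624 to 1092. MYBL2 and FOXM1, which join MuvB when mitotic genes are switched on, were at 150.66 and 68.56 TPM in shCON and had log2 changes of -0.44 and -0.22 and of -0.64 and -0.79. The median of the 7 genes was -0.64 and -0.99. LIN9, LIN52 and LIN54 have 36.7%, 43.6% and 39.1% GC, and with the GC trend removed the medians of the list were -0.57 and -0.71.

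Of the 9 cyclins and kinases that phosphorylate pocket proteins, 8 were tested and CCND2 was listed at 0 in every library. CCNE2 and CCNA2 were at least 2-fold lower under both hairpins and none was at least 2-fold higher. The shares of all tested genes were 4.58% and 1.12%. CCND3 was the only gene of the list higher by any amount under both, at 25.53 TPM in shCON and 29.88 and 27.33 TPM under the hairpins. CCNE2 fell from 12.13 to 4.13 and 3.47 TPM and CCNA2 from 38.21 to 17.29 and 12.98 TPM. CDK6 was at 4.97, 2.00 and 0.99 TPM and CCND1 at 162.63, 118.93 and 90.33 TPM, whereas CDK4 was at 309.22, 271.42 and 292.24 TPM. In TPM itself CDK6 was also more than 2-fold lower under both hairpins, and it missed the rule through the pseudocount of 1. The share of all tested genes in TPM itself was not counted. The median log2 changes of the list were -0.66 and -0.80, and -0.52 and -0.81 with the GC trend removed.

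None of the 7 inhibitors of these kinases passed the 2-fold rule in either direction, against 4.58% lower and 1.12% higher of all tested genes. CDKN1C came closest, at 3.51 TPM in shCON and 7.43 and 7.70 TPM under the hairpins, with log2 changes of 0.90 and 0.95. In TPM itself CDKN1C was more than 2-fold higher under both hairpins, and it missed the rule through the pseudocount of 1. The share of all tested genes in TPM itself was not counted. With a pseudocount of 0.1 the higher calls over all tested genes rose from 153 to 285. CDKN2A was the most abundant, at 129.04, 191.52 and 147.95 TPM, and CDKN1A was at 77.33, 58.99 and 42.69 TPM. The medians were 0.17 and -0.32. CDKN1C and CDKN2A have 63.7% and 64.4% GC. With the GC trend removed the log2 changes were 0.48 and 0.35 for CDKN1C and 0.19 and -0.35 for CDKN2A. The median of the inhibitors was then -0.15 and -0.46.

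None of the 11 corepressors that pocket proteins recruit passed the rule either, against the same 4.58% and 1.12% of all tested genes. Of the 11, 9 were lower under both hairpins by some amount, against 57.2% of all tested genes. HDAC1 was nearly level at 124.16, 124.41 and 113.78 TPM, while HDAC2 was at 75.84, 45.92 and 33.15 TPM. HDAC1 has 49.4% GC and HDAC2 38.2%. With the GC trend removed the log2 changes were 0.06 and -0.07 for HDAC1 and -0.27 and -0.47 for HDAC2. ARID4A, whose product binds pRB, was at 4.54, 2.24 and 0.69 TPM. In TPM itself ARID4A and ARID4B were more than 2-fold lower under both hairpins, and they missed the rule through the pseudocount of 1. The share of all tested genes in TPM itself was not counted. The median log2 changes of the 11 genes were -0.55 and -0.78, and -0.32 and -0.63 with the GC trend removed.

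The genes under E2F control were taken in 2 lists. Of 42 S-phase targets of E2F, all tested, 40 were lower under both hairpins (57.2% of all tested genes), 7 were at least 2-fold lower under both (4.58%) and none was higher under both (24.5%). Their median log2 changes were -0.72 and -0.79, which is -0.55 and -0.42 once the medians of the tested genes are subtracted. Beside CCNE2, large falls were those of RRM2, a subunit of ribonucleotide reductase, from 162.69 to 63.75 and 65.56 TPM, and of POLA1, the catalytic subunit of DNA polymerase alpha, from 7.91 to 3.11 and 2.49 TPM. LIG1 and POLA2 had opposite directions under the hairpins. With the GC trend removed the medians were -0.65 and -0.77.

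Of 28 mitotic genes controlled by DREAM and by MuvB with MYBL2 and FOXM1, all were lower under both hairpins and 7 were at least 2-fold lower under both, against the same 57.2% and 4.58% of all tested genes. The medians were -0.67 and -1.19, -0.50 and -0.82 once the medians of the tested genes are subtracted, and -0.54 and -0.91 with the GC trend removed. CENPF, a kinetochore protein, fell from 27.15 to 7.34 and 5.36 TPM, and the kinesin gene KIF23 from 32.43 to 11.81 and 6.23 TPM. KIF11 and NUSAP1 followed, with log2 changes of -1.38 and -1.97 and of -1.35 and -1.51. CDC20 and UBE2C had the smallest differences, at -0.30 and -0.64 and at -0.33 and -0.86. These lists overlap with general proliferation genes and were chosen with earlier results of the data known, so they are not independent evidence.

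**Figure D5:**
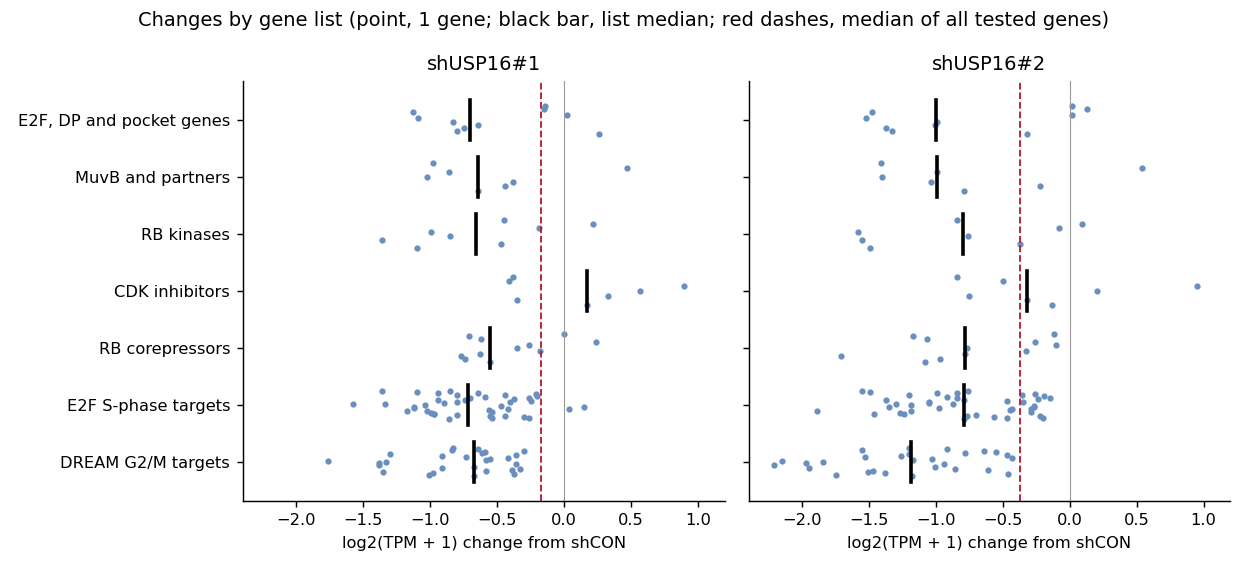
Change in log2(TPM + 1) from shCON with shUSP16#1 (left) and shUSP16#2 (right) for the tested genes of each list, with 1 point per gene, a black bar at the list median and red dashes at the median of all tested genes. The medians of the family, of the MuvB genes, the kinases, the corepressors and both target lists lie to the left of the dashes in both panels, and the median of the CDK inhibitors lies to the right.

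By the change nearer to 0 on the log2(TPM + 1) scale, E2F3 was the family gene that fell most, while E2F7 was at a lower percentage of shCON under both hairpins (40.2% and 26.4% against 41.6% and 30.9%). E2F4 was the only 1 higher under both hairpins. Of 9294 genes averaging 5 TPM or more, the 5 whose pair of log2 changes was nearest to that of E2F3 were AC118549.1, HSPD1, DHX9, MIR31HG and BIRC2, at Euclidean distances of 0.0094 to 0.031. Those nearest to E2F4 were KIAA2013, NPM3, DVL3, ECE1 and CCDC92, at 0.0085 to 0.013. Within a distance of 0.1 there were 43 genes around E2F3 and 297 around E2F4, so that likeness over 2 changes from 1 control picks out few genes by themselves.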

How the data were processed

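Total RNA of 3 PC3 libraries was prepared with an Illumina TruSeq RNA kit and sequenced by Majorbio. The authors deposited 1 table of TPM per gene with 2 decimals, made on the Majorbio Cloud Platform. The submitters' processing notes name HISAT2, CASAVA and hg19, and the quantification tool and annotation are not given in the sources used here. Columns of TPM that the table repeats were identical and were not used. Gene positions and transcript GC content are those of GENCODE release 29 (GRCh38), joined by gene identifier, and promoters those of RefSeq.

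Of 60930 entries, 1211 repeating a name were left out, the first being kept, and 13629 names averaging 1 TPM or more are called tested genes. Called means a difference of at least 1 in log2(TPM + 1) under both hairpins. With 1 library per condition there was no test across samples, depth is unknown, and the number of libraries limits precision. GC content was that of the transcript nearest in length to the table's length. To correct for it, genes were put in 50 GC bins, the bin's median change was taken off each gene, and the overall median was restored. It was available for all 10 family genes.

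All family genes are named. In lists of up to 11 genes any gene could be named, and in the target lists the 4 that fell most and the 2 that fell least or rose most, by the change nearer to 0. Some genes that this rule names are not reported here. The genes and lists were chosen with earlier results of these data known. Alternatives were a pseudocount of 0.1, centring, no minimum or 5 TPM as the minimum, either hairpin by itself and removal of the GC trend. The procedure was tested on simulated data. Python 3.11.15, numpy 2.4.6, pandas 2.3.3 and matplotlib 3.10.9 were used.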

Additional observations from a re-analysis of the deposited data

Results flagged for a closer look

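The log2 changes of 3 family genes had opposite signs under the hairpins, and the difference between hairpins was not tested, since each had 1 library. E2F1 was at -0.14 with shUSP16#1 and 0.02 with shUSP16#2. E2F2 was at -0.15 and 0.13. RBL2 was at 0.26 and -0.32. Against the median tested gene all 3 were higher under both hairpins, E2F1 by 0.03 and 0.39, E2F2 by 0.02 and 0.49, and RBL2 by 0.43 and 0.05.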

How the results depend on the processing

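No paired analysis was possible because only 1 library stood for each of the conditions. Depth is unknown for TPM, so the counting error of low levels such as that of RB1 is unknown. Of the family, 2 genes passed the 2-fold rule in both comparisons. With a pseudocount of 0.1, E2F7 (-1.58 as the mean of both hairpins) fell further than E2F3 (-1.46). The number passing became 0 with centring, 0 with the GC trend removed, 0 with both (a combination chosen after seeing the data), 1 with a minimum of 5 TPM, which leaves E2F7 out, and 5 with shUSP16#2 alone. The minimum of 5 TPM kept 3 genes lower than the median of all tested genes in place of 6, having removed E2F2, E2F7, RB1, RBL1 and RBL2. The median of the family, by the mean of both hairpins, was -0.87, and -0.56 with the GC trend removed and -0.29 with centring added. The S-phase targets moved from -0.77 to -0.50 with centring and to -0.44 with both, and the mitotic targets from -0.97 to -0.44 with both. By construction centring shifts every change by the same amount. Over all genes, the 624 lower and 153 higher calls became 270 and 338 with centring, 255 and 104 after GC correction, 111 and 210 after both steps, 1092 and 285 with a pseudocount of 0.1, and 442 and 94 with the minimum of 5 TPM. The cause of these differences was not tested. Of 75 changes of single genes under the alternatives, 47 kept their sign and stayed within 1.5 times the value reported, and 28 moved further or, for values near 0, changed sign. E2F3, E2F7, E2F8, TFDP1, RB1 and RBL1 were below 0 under every alternative run for them, E2F3 from -1.48 to -0.79 and RB1 from -1.37 to -0.24.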
